A study of Mus musculus with 10 samples.

Results

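The Jun and Fos family of the transcription factor AP-1 was followed in cultured mouse T helper cells through 10 genes: Jun, Junb, Jund, Fos, Fosb, Fosl1, Fosl2, Batf3, Atf3 and Jdp2. A gene was represented by the array probe set that carries its symbol and no other, and by the one with the highest mean over the 10 arrays where there were several. This gave values for 9 of the 10 genes, among 22180 genes in all. The 1 probe set that names Fosl1 also names Ccdc85b, so Fosl1 has no value of its own. Jund had 2 probe sets and each other measured gene had 1.

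AP-1 is a dimer of basic leucine zipper proteins that binds a short palindromic DNA element. Jun proteins pair with each other or with Fos proteins, whereas Fos proteins need a Jun partner. Stimulation of the T cell receptor and of CD28 induces these genes and, through MAP kinases, activates their products. In T cells AP-1 acts with NFAT at cytokine genes such as Il2, and dimers of Jun proteins with BATF bind beside IRF4 at many genes of polarised T helper cells.

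The cells were spleen lymphocytes isolated as CD4-positive from wild type Balb/c females, 10 to 14 weeks of age. Every culture was stimulated by anti-CD3 (4 µg/ml) together with anti-CD28 (30 ng/ml). Th17 cultures (4 arrays) also received IL-6 (20 ng/ml), TGFβ (5 ng/ml), IL-23 (10 ng/ml) and an antibody against IFNγ (10 µg/ml). Th2 cultures (3 arrays) received IL-4 (100 ng/ml) and the same antibody against IFNγ. Th0 cultures (3 arrays), the control, had these 2 antibodies alone, so in each comparison with Th0 the cytokines and the antibody against IFNγ cannot be told apart. Medium was renewed after 72 h, and the sources used here do not give the time from there to harvest. The titles name the arrays of a group as biological replicates without saying what was separate (animals, cell isolations or cultures), and p-values reflect only the scatter among these samples.

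Values are log2 expression, and differences are on the log2 scale. Of the T cell markers 8 of 9 were measured, and their mean lay between 8.53 and 9.68 on every array. The mean of 6 Th17 markers ranged from 6.69 to 7.37 on Th17 arrays, from 4.27 to 5.02 on Th2 arrays and from 3.76 to 4.83 on Th0 arrays. The mean of 5 Th2 markers ranged from 7.87 to 8.07 on Th2 arrays, from 6.995 to 7.77 on Th0 arrays and from 6.37 to 7.30 on Th17 arrays. Of these markers 4 were higher in Th2 than in Th0 cells by their means and 1, Gata3, was lower. Gata3 was at 8.15, 7.28 and 7.14 on Th2 replicates 1 to 3 and at 7.43, 8.14 and 7.68 on Th0 replicates 1 to 3. On the first principal component, with 35.8% of the variance, 3 arrays stood apart (Th2 replicate 2, Th2 replicate 3 and Th17 replicate 4, at 37.5 to 55.8, the rest at -0.96 or below). Markers of basophils and mast cells (8 of 8 measured) were highest on Th0 replicate 1, Th17 replicate 2 and Th17 replicate 3, with means of 6.99, 5.77 and 5.84. Leaving out either set moved several of the differences described here.

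Upstream sequences are shown for Jun, the 1 gene of the family that passed the test below, and for Fos, Fosb and Atf3, which were high together on 2 Th2 arrays. Each is the 250 bases before the RefSeq gene start (assembly GRCm38.p6), 5′ to 3′ on the gene's strand. Capitals mark matches, on either strand, to the motifs searched. These were the classical AP-1 element TGANTCA, the classical ATF/CREB element TGACGTCA and its shortened form TGACG. The other motifs were the related letters TGACATCA, TTACCTCA and TTACGTCA, and the CArG box, the binding element of serum response factor. The shortened form also lies, reversed, inside TTACGTCA.
Jun (chr4:95052223-95052472, minus strand): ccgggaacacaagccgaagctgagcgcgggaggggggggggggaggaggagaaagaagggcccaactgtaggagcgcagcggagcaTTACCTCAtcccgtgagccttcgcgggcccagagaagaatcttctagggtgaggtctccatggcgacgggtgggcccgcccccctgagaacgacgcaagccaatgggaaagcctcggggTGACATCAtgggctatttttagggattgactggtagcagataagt
Fos (chr12:85473640-85473889, plus strand): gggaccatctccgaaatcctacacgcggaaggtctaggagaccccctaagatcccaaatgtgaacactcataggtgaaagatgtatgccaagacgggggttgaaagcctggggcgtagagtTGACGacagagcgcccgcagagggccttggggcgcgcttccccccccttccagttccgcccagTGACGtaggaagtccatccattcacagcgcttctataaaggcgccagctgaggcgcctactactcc
Fosb (chr7:19310046-19310295, minus strand): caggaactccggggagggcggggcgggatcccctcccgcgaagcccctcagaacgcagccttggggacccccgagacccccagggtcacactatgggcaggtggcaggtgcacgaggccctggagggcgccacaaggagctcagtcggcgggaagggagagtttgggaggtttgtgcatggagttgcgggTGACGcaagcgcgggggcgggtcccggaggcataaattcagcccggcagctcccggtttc
Atf3 (chr1:191183334-191183583, minus strand): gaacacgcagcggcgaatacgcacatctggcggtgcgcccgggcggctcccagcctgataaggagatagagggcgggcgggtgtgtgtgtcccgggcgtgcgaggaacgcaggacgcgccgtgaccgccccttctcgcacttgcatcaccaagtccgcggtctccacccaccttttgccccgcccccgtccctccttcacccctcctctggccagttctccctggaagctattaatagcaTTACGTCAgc
The Jun sequence held TTACCTCA at bases -164 to -157 and TGACATCA at -45 to -38, counted back from the gene start. These are the paired AP-1-like elements through which Jun is known to be controlled by dimers of Jun and ATF2. TTACCTCA was found in 0.728% and TGACATCA in 2.93% of 32851 upstream windows of this length. Atf3 held TTACGTCA at -10 to -3, an element in 0.448% of windows. TGACG stood at -129 and -66 in Fos and at -60 in Fosb, and also at -106 in Junb and at -114 in a window of Jdp2. With the reversed copy in Atf3, 5 of the 11 windows of family genes held it, as did 17.8% of all windows. None of the 11 windows of the 9 matched family genes held the classical AP-1 element, the classical ATF/CREB element or a CArG box, found in 6.75%, 1.55% and 1.47% of all windows. The matches describe these windows alone and are not evidence of binding. Sequence further upstream than 250 bases was not searched, so an element missing here, such as a CArG box in Fos, may lie there.

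Jun (probe set 17427312), the founding subunit of AP-1, was higher in Th17 than in Th0 cells, and its values on Th17 arrays lay above every Th2 value. Jun was at 6.32, 6.94, 6.74 and 6.90 on Th17 replicates 1 to 4, at 4.05, 6.02 and 5.42 on Th2 replicates 1 to 3, and at 4.33, 3.99 and 4.18 on Th0 replicates 1 to 3. Every Th17 array was above every array of the other groups, 1 Th2 array lay among the Th0 values, and 2 lay between Th0 and Th17. Group means were 6.72 ± 0.28 (SD, n = 4) in Th17, 5.16 ± 1.01 (SD, n = 3) in Th2 and 4.17 ± 0.17 (SD, n = 3) in Th0 cells. In bulk RNA a change per cell and a change in the share of cells with the transcript cannot be told apart.

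Th17 exceeded Th0 cells in Jun by 2.56 ± 0.37 (SE; 95% interval 1.74 to 3.37), or 5.88-fold (limma, adjusted p = 0.0381). An exact two-sided permutation test of the 7 arrays gave p = 0.0286, the smallest it can give. Jun was the 1 of 9 family genes called, meaning at an adjusted p under 0.05, where 0.104% of all genes were called. It was also the 1 whose Th17 and Th0 values did not overlap, as did those of 7.57% of all genes. The size of the difference hardly moved when single arrays were left out, from 2.47 to 2.69, but its call was held without Th2 replicate 1 or Th2 replicate 2 only. Without each Th0 array, each Th17 array or Th2 replicate 3 the adjusted p was between 0.0586 and 0.183, and the call also ended on normalizing by quantiles again (adjusted p = 0.0505) or centring arrays on their medians (0.0577). Without the 3 arrays that stood apart the difference was 2.50 (adjusted p = 0.00489), and without the 3 arrays high in basophil markers 2.53 (adjusted p = 0.918).

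**Figure D1:**
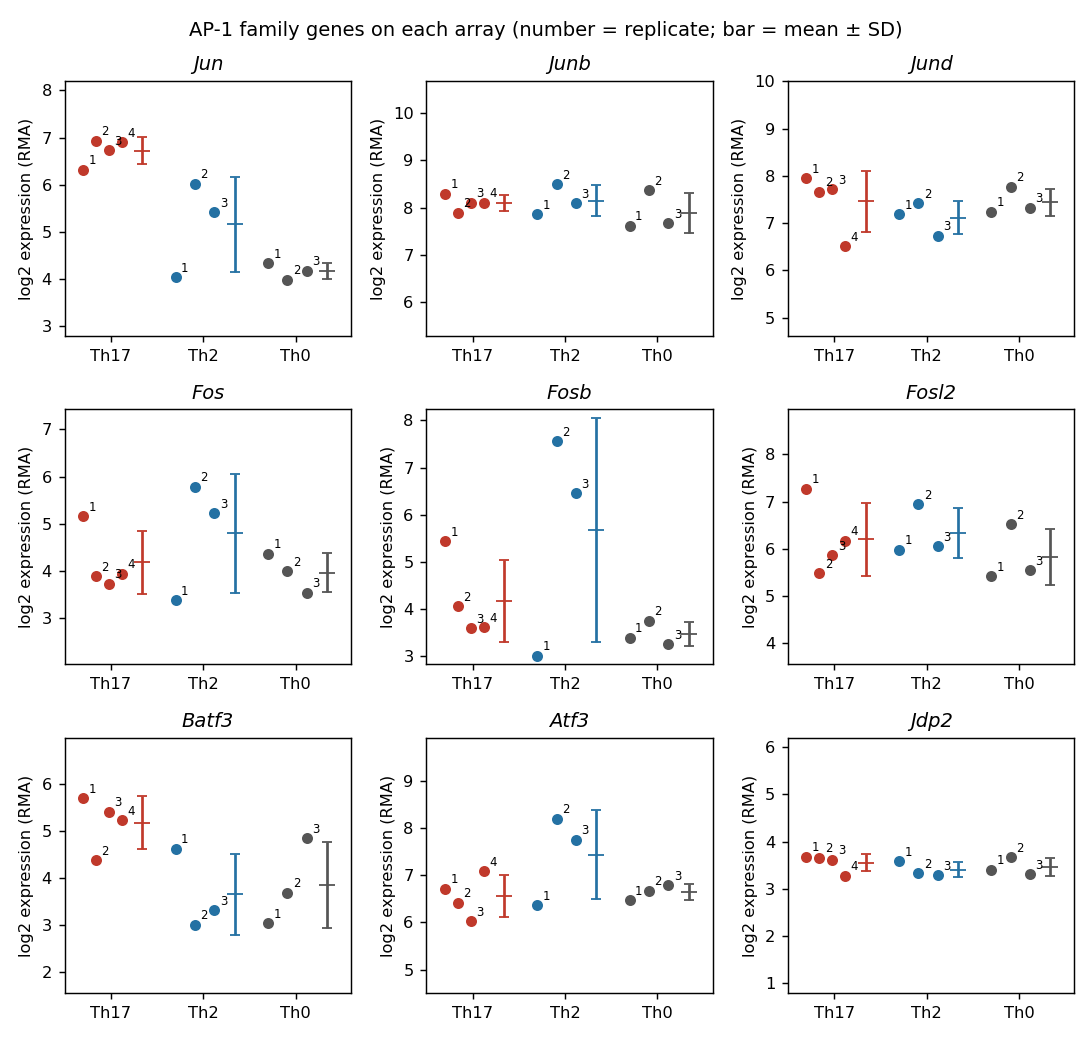
Log2 expression of the 9 measured genes on each of the 10 arrays. Points are arrays with their replicate number, bars are mean ± SD of 4 Th17, 3 Th2 and 3 Th0 arrays, and every panel spans the same log2 height. Jun separates the Th17 arrays from all others, and Fosb is high on Th2 replicates 2 and 3 and low on Th2 replicate 1.

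Between Th17 and Th2 cells Jun differed by 1.56 ± 0.37 (SE, 2.95-fold), which did not pass the test (limma, adjusted p = 0.296). The 4 Th17 values and 3 Th2 values did not overlap (exact permutation p = 0.0286), a separation found in 5.6% of all genes. Between Th2 and Th0 cells Jun differed by 0.99 ± 0.40 (SE, 95% interval 0.12 to 1.87, adjusted p = 0.767), with groups that overlapped. Both comparisons turned on the Th2 arrays. Without the 3 arrays apart, which leaves Th2 replicate 1 as the lone Th2 array assumed to vary like the other groups, Th17 exceeded Th2 by 2.62 (adjusted p = 0.0202) and Th2 differed from Th0 by -0.12. Without Th2 replicate 1, Th17 differed from Th2 by 1.00 (adjusted p = 0.0658) and Th2 exceeded Th0 by 1.55 (adjusted p = 0.0228). The Th2 arrays left in that setting, replicates 2 and 3, are both among the arrays that stood apart.

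The genes of the other Jun proteins were not called in any comparison. Junb (probe set 17511259), which takes part in Th17 and Th2 cytokine expression in mice, was at 8.30, 7.89, 8.11 and 8.10 on Th17 arrays, 7.85, 8.50 and 8.09 on Th2 arrays and 7.61, 8.37 and 7.67 on Th0 arrays. The groups overlapped. Th17 differed from Th0 by 0.22 ± 0.22 (SE, 95% interval -0.26 to 0.70, adjusted p = 0.999), so a change as large as that of Jun lay outside the interval. Th2 differed from Th0 by 0.27 ± 0.23 (adjusted p = 0.877), and Th17 from Th2 by -0.05 ± 0.22 (adjusted p = 0.996).

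Jund (probe set 17510127), a Jun protein known to slow growth in fibroblasts, was at 7.95, 7.66, 7.72 and 6.51 on Th17 arrays. It was at 7.18, 7.42 and 6.73 on Th2 arrays and at 7.24, 7.77 and 7.32 on Th0 arrays. Low values fell on Th17 replicate 4 and Th2 replicate 3, which are 2 of the arrays that stood apart. Differences were 0.02 ± 0.32 for Th17 against Th0, -0.33 ± 0.34 for Th2 against Th0 and 0.35 ± 0.32 for Th17 against Th2 (SE; adjusted p = 0.999, 0.899 and 0.947). The other Jund probe set, 17502001, was flatter, between 5.82 and 6.39 over the 10 arrays, and did not fall on those arrays to the same degree (5.98 on Th17 replicate 4 and 5.85 on Th2 replicate 3).

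Among the Fos proteins no gene was called in any comparison, and the largest spread lay within the Th2 group. Fosb (probe set 17487211), an immediate early gene, was at 5.44, 4.07, 3.59 and 3.62 on Th17 arrays, at 3.01, 7.56 and 6.46 on Th2 arrays and at 3.40, 3.76 and 3.26 on Th0 arrays. Th2 replicate 1 was the lowest of the 10 arrays and Th2 replicates 2 and 3 the highest. The Th2 mean of 5.68 ± 2.37 (SD, n = 3) thus describes none of its arrays, and the Th0 mean was 3.47 ± 0.26 (SD, n = 3).

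Th2 differed from Th0 cells in Fosb by 2.20 ± 0.92 (SE, 95% interval 0.18 to 4.23, limma adjusted p = 0.767). Th17 differed from Th0 by 0.71 ± 0.86 (adjusted p = 0.999; 0.29 without Th17 replicate 1) and from Th2 by -1.50 ± 0.86 (adjusted p = 0.894). Without Th2 replicate 1, which leaves only Th2 arrays that stood apart, Th2 exceeded Th0 by 3.53 ± 0.51 (SE, adjusted p = 0.0187). Th17 was then below Th2, at -2.83 (adjusted p = 0.0273). Without the 3 arrays apart, where Th2 replicate 1 stands alone, the signs turned to -0.46 and 1.35.

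Fos (probe set 17277387), the partner that gives the Jun-Fos dimer its name, showed the same arrays at the top. Fos was at 5.16, 3.89, 3.73 and 3.94 on Th17 arrays, 3.39, 5.79 and 5.23 on Th2 arrays and 4.36, 3.99 and 3.54 on Th0 arrays. Th2 replicates 2 and 3 and Th17 replicate 1 exceeded all other arrays, and Th2 replicate 1 was the lowest. Th2 differed from Th0 by 0.84 ± 0.55 (SE, adjusted p = 0.837), Th17 from Th0 by 0.22 ± 0.52 (adjusted p = 0.999) and Th17 from Th2 by -0.62 ± 0.52 (adjusted p = 0.943). Without Th17 replicate 1 the difference of Th17 from Th0 was -0.11, and without the 3 arrays apart that of Th2 from Th0 was -0.58.

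Fosl2 (probe set 17436237), the Fos-related protein Fra-2 and a known modulator of the Th17 programme, was at 7.28, 5.48, 5.87 and 6.17 on Th17 arrays. It was at 5.99, 6.95 and 6.06 on Th2 arrays and at 5.42, 6.52 and 5.55 on Th0 arrays. Each group held 1 array well above its others, and the groups overlapped. Differences were 0.37 ± 0.42 (Th17 against Th0), 0.50 ± 0.45 (Th2 against Th0) and -0.13 ± 0.42 (Th17 against Th2), with adjusted p = 0.999, 0.879 and 0.996. Th17 differed from Th0 by 0.012 without Th17 replicate 1, and Th2 from Th0 by 0.16 without the 3 arrays apart. On Th17 replicate 1, the highest of the Th17 arrays in Fos, Fosb and Fosl2, the means of 9 of 9 myeloid markers (4.66) and of 7 of 8 B cell markers (4.51) were also the highest of the 10 arrays. The neutrophil transcript S100a8 was at 7.16 there and at 3.74 or lower elsewhere. S100a9 (6.52) and Lyz2 (5.43) were also highest there, but no other myeloid marker was, and Adgre1 (2.89) was at its lowest. On Th0 replicate 2 the B cell mean was nearly as high (4.47), with Fos, Fosb and Fosl2 at 3.99, 3.76 and 6.52. The part of such cells in the Fos, Fosb and Fosl2 values was not tested.

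**Figure D2:**
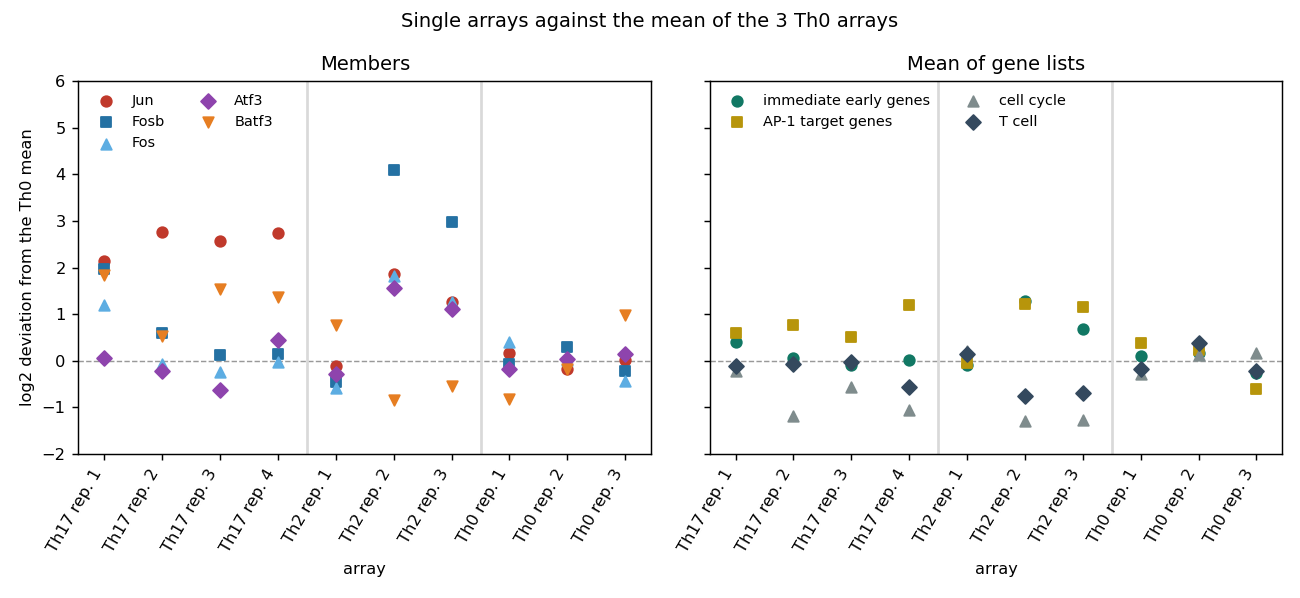
Each array against the mean of the 3 Th0 arrays on the log2 scale, for 5 family genes (left) and for the means of 4 gene lists (right), ordered Th17, Th2, Th0. Fosb, Fos and Atf3 are high together on Th2 replicates 2 and 3, where the mean of immediate early genes is highest and that of cell cycle genes lowest. Cell cycle genes are nearly as low on Th17 replicates 2 and 4, and Jun is high on all 4 Th17 arrays.

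Of the small partners of Jun, Batf3 and Atf3 varied in opposite ways among the Th2 arrays. Batf3 (probe set 17220787), which pairs with Jun proteins and is known for its role in cross-presenting dendritic cells, was at 5.69, 4.38, 5.41 and 5.22 on Th17 arrays. It was at 4.62, 3.01 and 3.32 on Th2 arrays and at 3.04, 3.69 and 4.84 on Th0 arrays. Of the 4 Th17 arrays 3 were above every other array, and Th17 replicate 2 lay below Th2 replicate 1 and Th0 replicate 3. Th17 differed from Th0 by 1.32 ± 0.48 (SE, 95% interval 0.26 to 2.37) and from Th2 by 1.52 ± 0.48 (0.47 to 2.58), and neither passed the test (limma, adjusted p = 0.874 and 0.591). Leaving out the 3 arrays apart, with Th2 replicate 1 alone in its group, made the difference from Th2 0.54. Th2 differed from Th0 by -0.21 ± 0.51 (adjusted p = 0.968). The mean of 6 of 7 dendritic cell markers lay between 3.85 and 3.87 on Th17 arrays, between 3.77 and 4.19 on Th2 arrays and between 3.68 and 3.87 on Th0 arrays.

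Atf3 (probe set 17231033), a factor of the stress response that binds DNA alone or with Jun, was at 6.71, 6.42, 6.02 and 7.09 on Th17 arrays. On Th2 arrays it was at 6.37, 8.20 and 7.75, and on Th0 arrays at 6.47, 6.67 and 6.79. Th2 replicates 2 and 3 exceeded all other arrays, and Th17 replicate 4 came next. Differences were -0.08 ± 0.38 (Th17 against Th0), 0.79 ± 0.41 (Th2 against Th0) and -0.88 ± 0.38 (Th17 against Th2), with adjusted p = 0.999, 0.803 and 0.754. Without Th2 replicate 1, which leaves only Th2 arrays that stood apart, Th2 exceeded Th0 by 1.33 (adjusted p = 0.0443). Th17 was then below Th2, at -1.41 (adjusted p = 0.0371). Th2 differed from Th0 by -0.28 without the 3 arrays apart.

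Jdp2 (probe set 17277396), a repressor that pairs with Jun proteins, varied least in the family, between 3.28 and 3.68 over the 10 arrays. Its differences were 0.09 ± 0.16 (95% interval -0.25 to 0.44), -0.06 ± 0.17 (-0.43 to 0.31) and 0.15 ± 0.16 (-0.19 to 0.50) for Th17 against Th0, Th2 against Th0 and Th17 against Th2. The adjusted p-values were 0.999, 0.972 and 0.953. Weak transcripts are compressed by the normalization, so a change in a transcript near the array's background could be larger than its value here.

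**Figure D3:**
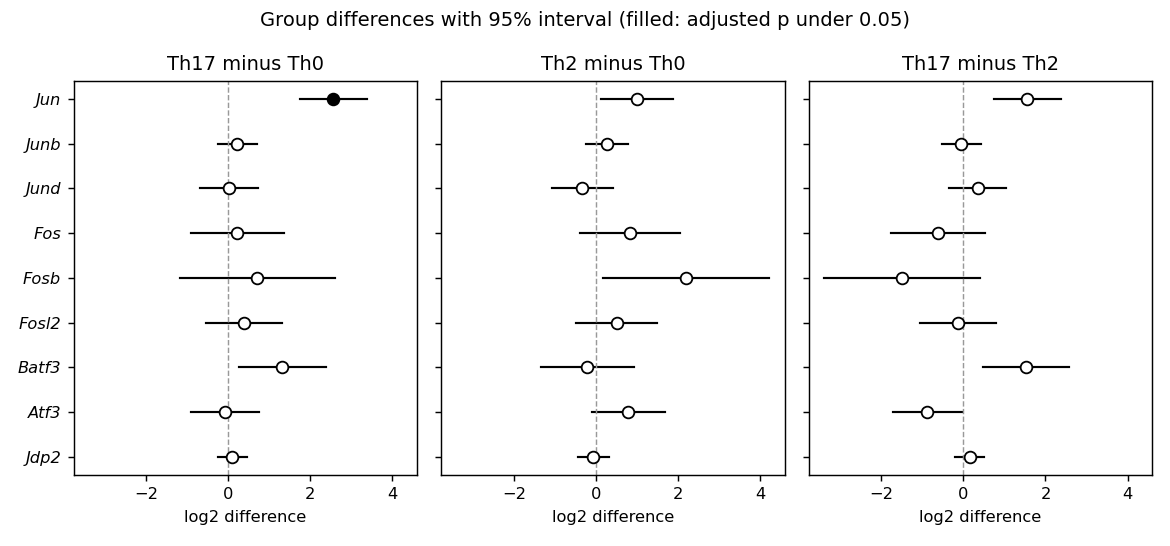
Differences between group means on the log2 scale with their 95% intervals, for 9 genes and 3 comparisons. The filled point, Jun in Th17 minus Th0, is the 1 difference at an adjusted p under 0.05. The intervals of Fosb are the widest in each comparison.

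Over the family, 8 of 9 differences of Th17 from Th0 were above 0, with a median of 0.22 against -0.02 over all genes. In Th2 against Th0, 6 of 9 were above 0, with a median of 0.50 against -0.01 over all genes, and in Th17 against Th2 4 of 9, with a median of -0.05 against -0.01. Each pair of these comparisons shares the arrays of 1 group. At an unadjusted p under 0.05, Th17 differed from Th0 in 2 of 9, Jun and Batf3, where 5.17% of all genes did. In Th2 against Th0 no family gene was called by limma and 2 of 9, Jun and Fosb, had an unadjusted p under 0.05, where 0% and 6.34% of all genes did. No family gene separated Th2 from Th0 arrays without overlap, as 8.43% of all genes did. In Th17 against Th2 no family gene was called either, and Jun and Batf3 (higher) and Atf3 (lower) had an unadjusted p under 0.05, where 0.0766% and 6.25% of all genes did. Without Th2 replicate 1, Th2 exceeded Th0 in 3 of 9 family genes (Jun, Fosb and Atf3), where 0.798% of all genes were called higher. The Th2 arrays left are then replicates 2 and 3, both among the 3 arrays apart, and 431 genes were called against 0 with all arrays. In that setting 2 of 9, Fosb and Atf3, were called lower in Th17 than in Th2, as were 0.478% of all genes. The family's median without the 3 arrays apart was 0.34 in Th17 against Th0, -0.12 in Th2 against Th0 (3 of 9 above 0) and 0.54 in Th17 against Th2 (9 of 9 above 0), where Th2 replicate 1 stands alone. Without the 3 arrays high in basophil markers it was 0.69 in Th17 against Th0 (7 of 9), 0.30 in Th2 against Th0 (6 of 9) and 0.074 in Th17 against Th2 (6 of 9).

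**Figure D4:**
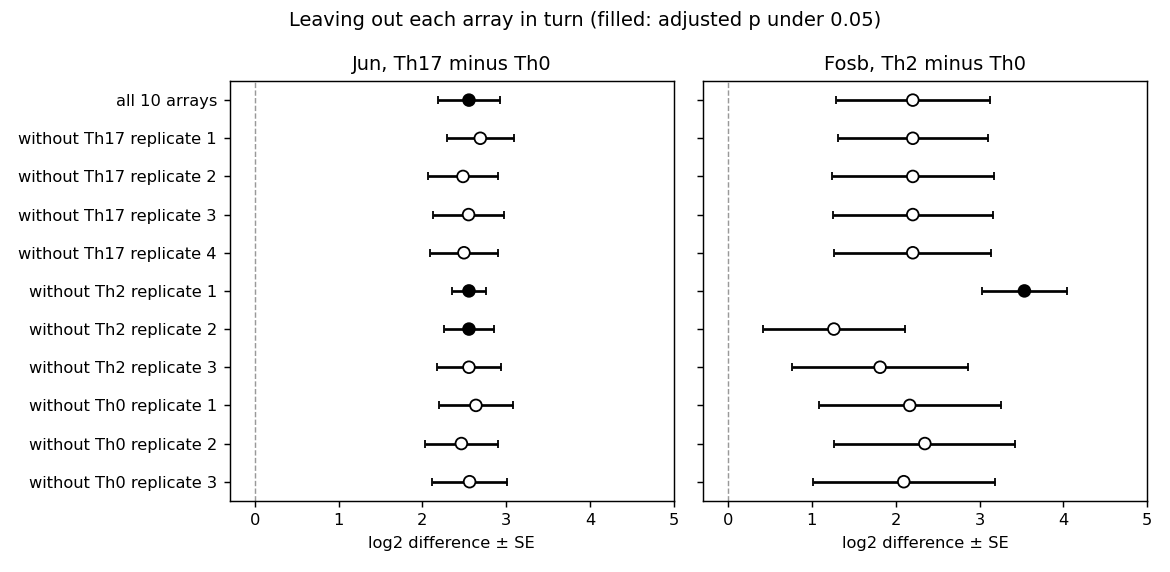
Log2 differences ± SE with all 10 arrays and without each array in turn, for Jun in Th17 minus Th0 and Fosb in Th2 minus Th0. Filled points have an adjusted p under 0.05. The difference of Jun stays between 2.47 and 2.69, and that of Fosb runs from 1.26 to 3.53 with the Th2 array left out.

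The arrays that were high in Fosb, Fos and Atf3 also stood apart in other transcripts. Means of 19 measured immediate early genes were 7.83 and 7.23 on Th2 replicates 2 and 3, against 6.95 or less on each other array. Egr1, a zinc finger factor induced with Fos, was at 8.60 and 7.94 there and at 6.41 on Th2 replicate 1. Means of 19 cell cycle genes were 6.49 and 6.51 on those 2 arrays, the lowest of the 10, against 8.003 on Th2 replicate 1. Th17 replicates 2 and 4 were nearly as low in these genes, at 6.61 and 6.73, with Fosb at 4.07 and 3.62. The mean of T cell markers was also lowest on Th2 replicates 2 and 3, at 8.53 and 8.59. It was next lowest on Th17 replicate 4, at 8.72. The part of these differences in the Fosb, Fos and Atf3 values was not tested.

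The genes around the family were described from 8 lists with 127 measured genes. None was called in the 3 comparisons by limma, while 25 had an unadjusted p under 0.05 in Th17 against Th0, 25 in Th2 against Th0 and 30 in Th17 against Th2. Over all genes 0.104%, 0% and 0.0766% were called in these comparisons, and 5.17%, 6.34% and 6.25% had an unadjusted p under 0.05. Of 26 genes known as AP-1 targets, 17 were higher in Th17 than in Th0 cells, with a median difference of 0.52. In Th2 against Th0 24 of the 26 were higher, with a median of 0.70, and without the 3 arrays apart 15 were, with a median of 0.10. Il17a and Il21, effector cytokines of Th17 cells, had the smallest p-values, at 4.22 ± 0.86 and 3.00 ± 0.65 (SE, Th17 against Th0, adjusted p = 0.180 and 0.236). Of the immediate early genes, 10 of 19 were higher in Th17 than in Th0 cells (median 0.07). In Th2 against Th0 15 of 19 were higher (median 0.65), and without the 3 arrays apart 9 were (median -0.05). Egr3 differed by -0.996 and Gadd45b, a stress-induced regulator of MAP kinases, by 1.21 in Th17 against Th0 (adjusted p = 0.879 and 0.971).

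Among 19 other basic leucine zipper genes, 8 were higher in Th17 than in Th0 cells (median -0.13). Bach2, a repressor that restrains effector differentiation, differed by 0.97 ± 0.27 (SE, adjusted p = 0.563) and Maf, a factor of Il10, Il21 and Il4 expression, by 1.36 ± 0.49 (adjusted p = 0.839). Maf differed by 2.63 ± 0.49 between Th17 and Th2 cells, the smallest adjusted p of the 127 genes in that comparison (0.113). The MAP kinase cascades upstream of Jun and Fos had a median of 0.10 over 18 genes (12 higher), with Mapk10, the JNK3 kinase, at -0.44 and Map3k14, the NF-kappaB-inducing kinase, at 0.61 (adjusted p = 0.656 and 0.807). Over 7 genes of serum response factor, ternary complex factors and MEF2 factors the median was 0.17 (4 higher). The ternary complex factor Elk3 was at 0.90 and Mef2c at -0.49 (adjusted p = 0.455 and 0.931). Over 9 NFAT, IRF and related partners the median was -0.01 (4 higher), with Nfatc1 at -0.47 and Nfat5 at 0.69 (adjusted p = 0.972 and 0.999). Over 10 genes that act on Jun and Fos proteins (turnover enzymes and cofactors) it was 0.09 (6 higher), with Fbxw7, the ubiquitin ligase subunit that targets Jun, at 0.42 and the coactivator Tcf20 at 0.31 (adjusted p = 0.999 each). Cell cycle genes had a median of -0.71, and 0 of 19 were higher in Th17 than in Th0 cells. In Th2 against Th0 it was also 0 of 19, with a median of -0.78. Without the 3 arrays apart, where Th2 replicate 1 stands alone, the median was -0.65 in Th17 against Th0 and 0.30 in Th2 against Th0.

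For the 4 family genes with the widest range over the 10 arrays, the 3 genes with the most similar pattern were sought among 16848 named protein-coding genes by Pearson's r of log2 values. Jun was most like Cpd (carboxypeptidase D, r = 0.95), Sgk1 (a kinase that promotes Th17 cells, 0.93) and Klrc1 (the receptor chain NKG2A, 0.92). Fosb was most like Ppp1r15a (the stress-induced phosphatase subunit GADD34, 0.99), Sdad1 (0.97) and Rgcc (0.96). Fos was most like the tyrosine kinase Fes (0.97), Fbxw25 (0.96) and the translation termination factor Etf1 (0.95). Batf3 was most like the helicase Dhx32, Ces1a and Tshz3 (0.94 each). These are the highest of many correlations over 10 arrays that share the array differences above, and are given as descriptions.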

How the data were processed

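Messenger RNA was measured on 1 array for each of 10 samples. The deposited values are log2 expression that the authors obtained with RMA in Affymetrix Expression Console 1.3.0.187, per the submitters' processing notes. RNA was extracted with a kit that includes DNase treatment and amplified with a whole transcriptome kit, per the labels' protocols. RMA includes quantile normalization, so a change in total RNA cannot be seen, and it compresses differences of weak transcripts. The table holds 41345 probe sets, of which 23521 have 1 symbol in the platform's annotation, giving 22180 genes. All 9 measured family genes matched RefSeq by Entrez ID. No detection call, batch or scan date was used here, and array medians ran from 3.39 to 3.61. The number of arrays limits the precision.

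With limma 3.58.1 (lmFit, eBayes) in R 4.3.3, 1 linear model of the 3 groups was fitted per gene over all 10 arrays, without a filter on low values. Two-sided p-values were adjusted over the 22180 genes of a comparison (Benjamini-Hochberg), and a gene was called under 0.05. The smallest p of the exact permutation test is 0.0286 for 4 against 3 arrays and 0.1 for 3 against 3. Groups and replicate numbers come from the titles. The description of Th2 replicate 3 carries the number 4. The procedure was tested on simulated data. Of each gene list, the text names the genes called or, where none was, the 2 with the smallest p in Th17 against Th0. Egr1 and the cell type markers named singly, such as S100a8, were picked with their values known. The members, lists and alternatives were chosen with earlier results of these data known. Erythroid markers and Fosl1 were not analysed here. Alternatives were other normalizations, probe set choices, a filter at the median of all genes, other variance models, a replicate block and left-out arrays. Without the 3 arrays apart or high in basophil markers, list medians were added after the data were seen, as was a replicate block with the descriptions' numbers.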

Additional observations from a re-analysis of the deposited data

Results flagged for a closer look

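Within the 4 Th17 arrays, the highest Fos value (5.16, replicate 1) stood out because its gap to the next array was 0.852 of the group's range, above Dixon's critical ratio at the 95% level. The lowest Jdp2 value (3.28, replicate 4) stood out in the same way with a ratio of 0.854, in a group that spans only 3.28 to 3.68. Of the 9 genes tested in this group 2 held such an array, and chance gives about 1 such group in 20.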

How the results depend on the processing

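Of the 27 differences (9 genes, 3 comparisons), recomputed under 22 alternatives (Jdp2 under 21, as the filter at the median of all genes left it out), 538 of 591 values kept their direction and their side of the threshold. Jun in Th17 against Th0 kept its direction in all 22, from 2.47 to 2.69, with an adjusted p from 0.00104 to 0.918, and lost its call in 13. These were 8 single arrays left out and 5 others: normalizing by quantiles again (2.52, adjusted p = 0.0505), median centring (2.56, 0.0577), the replicate block by the titles' numbers (2.50, 0.127) or the descriptions' (2.48, 0.0973) and leaving out the 3 basophil-high arrays (2.53, 0.918). In those 5 the count of family genes called was 0, against 1 in the setting reported, and 0 to 1 with single arrays left out. In Th17 against Th2 it was 1 with array weights (Atf3), 1 without the 3 arrays apart (Jun) and 0 to 2 with single arrays left out. In Th2 against Th0 it was 0 to 3 with single arrays left out.

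Direction turned in 33 values, none of them past the threshold. Without the 3 arrays apart these were, for Th2 against Th0, Jun -0.12, Junb -0.029, Fos -0.58, Fosb -0.46, Batf3 0.76, Atf3 -0.28 and Jdp2 0.12, and for Th17 against Th2, Junb 0.24, Fos 0.88, Fosb 1.35, Fosl2 0.22 and Atf3 0.016. The setting rests on 1 Th2 array. Leaving out the 3 basophil-high arrays, they were Jund -0.31, Atf3 0.17 and Jdp2 -0.014 for Th17 against Th0, and Junb 0.050 and Fosl2 0.39 for Th17 against Th2. With single arrays left out, Jund ran from -0.15 to 0.34, Fos from -0.11 to 0.42 and Atf3 from -0.26 to 0.094 (Th17 against Th0). Batf3 ran from -0.69 to 0.28 and Jdp2 from -0.15 to 0.045 (Th2 against Th0), and Junb from -0.20 to 0.13 and Fosl2 from -0.49 to 0.18 (Th17 against Th2). With the replicate block by the descriptions' numbers, Batf3 turned to 0.092 and Jdp2 to 0.00019 (Th2 against Th0). The causes were not tested.

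By the titles' numbers, 1 of 9 same-numbered pairs of arrays had a correlation of deviations over 0.1 (range -0.31 to 0.30), and 1 of 9 arrays correlated best with its own number. By the descriptions' numbers, which put Th2 replicate 3 with Th17 replicate 4, it was 2 of 8 pairs (-0.29 to 0.49), and that pair's 0.49 was the highest of all 33. Neither numbering had every pair over 0.1, so neither was taken to pair the samples. The replicate block left 8 genes called in Th17 against Th0 by the titles' numbers, where Th17 replicate 4 has no partner, and 5 by the descriptions', a fit added after the data were seen. Over all genes the count was 23 in Th17 against Th0 (2 to 60 over the alternatives), 17 in Th17 against Th2 (3 to 330) and 0 in Th2 against Th0 (0 to 431, the highest without Th2 replicate 1).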

Other observations

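The probe set shared by Ccdc85b and Fosl1 (17356427) cannot be given to either gene. It was at 5.00, 5.22, 3.91 and 5.81 on Th17 arrays, at 4.07, 7.45 and 6.10 on Th2 arrays and at 4.81, 5.30 and 3.35 on Th0 arrays. Its highest values fell on Th2 replicates 2 and 3, as did those of Fosb, Fos and Atf3.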
